A study of Mus musculus with 7 samples.

Results

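The cells of the gut wall that do not descend from the neural crest were compared with purified crest neurospheres by RNA sequencing. The non-crest cells were 1 library of tdTomato-negative cells sorted from mixed small bowel spheroids. They were set against 3 neurosphere libraries, so 4 of the study's 7 libraries entered the comparison. A gene was taken as higher in the non-crest cells only if it lay above the highest of the 3 neurospheres, and as lower only if it lay below the lowest. Values are CPM, the reads of a gene scaled to the same total in every library. Of 27179 genes in the table, 14865 reached 1 CPM in at least 1 of the 4 libraries and are called measured here.

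All cells came from Wnt1-tdT mice, a cross of Wnt1-Cre with the R26R-tdT reporter, in which Wnt1-driven Cre recombinase leaves cells of crest descent red with the fluorescent protein tdTomato. A tdTomato-negative cell is therefore one in which the reporter was not on when it was sorted. For the non-crest library, the muscle layer of the small bowel with its myenteric plexus was digested, all cells were grown together as spheroids for 10 days, and the tdTomato-negative cells were collected. The M1 bowel neurospheres came from tdTomato-positive cells sorted straight from the digest and then grown for 10 days. The M2 bowel neurospheres came from tdTomato-positive cells sorted out of 10-day mixed spheroids and grown for 10 further days. The adipose neurospheres were made in the same steps as M2 but from posterior subcutaneous fat. All 4 cultures had basic fibroblast growth factor and epidermal growth factor at 20 ng/mL each, with heparin. Each library held about 50000 cells pooled equally from 3 mice, 2 female and 1 male, aged 1 month. The M1 neurospheres match the non-crest library in tissue and in time in culture, M2 differs from it in time, and the adipose neurospheres differ in both. Lineage, growth beside other cell types up to collection, and sorting after rather than before the last growth differ together from all 3. They cannot be told apart here.

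The outer wall of the bowel is built mainly by mesenchyme of mesodermal origin: smooth muscle, fibroblasts, interstitial cells of Cajal that pace contraction, PDGFRA-positive interstitial cells, vessels and a covering mesothelium. Neural crest cells migrate into this wall and form the enteric neurons and glia within it. The mesenchyme makes the collagens, fibronectin and proteoglycans that surround the ganglia and secretes growth factors and chemokines, and forkhead factors such as Foxf1 mark its gut identity.

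Each group had 1 library, so no difference has a replicate check and no p-value is given. Intervals and floors cover the counting error of reads only. The cDNA was amplified and carried no molecular identifiers, so reads are not separate molecules and the intervals can be too narrow even for that error. A gene passed the size rule when its CPM differed at least 4-fold from the bar (the nearest of the 3 neurospheres) and the 95% counting interval of that ratio lay wholly beyond 2-fold. The 4 libraries held between 51885106 and 65301500 reads, and between 12401 and 13938 genes reached 1 CPM in each. In bulk RNA, fewer cells of a type and less RNA per cell cannot be told apart. Where 3 values follow each other, they are those of the adipose, M1 bowel and M2 bowel neurospheres in that order.

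Of the measured genes, 866 (5.83%) were higher in the non-crest cells than in all 3 neurospheres and 561 (3.77%) were lower. Among the higher genes, 312 reached 1 CPM in the non-crest library alone, where being measured already asks for a high non-crest value. At any size, 3143 genes (21.1%) lay above all 3 neurospheres and 6841 (46.0%) below. The median measured gene lay 0.83 log2 units below the highest neurosphere and 0.09 above the lowest. The counts and medians of gene lists below are to be read beside these shares and medians. The 866 higher genes took 21.5% of the non-crest reads, against 1.14%, 1.29% and 0.618% of the neurosphere reads. A few very abundant transcripts carried much of that: the 15 higher genes with most reads held 11.4% of the non-crest library and 0.596%, 0.394% and 0.130% of the others. The 561 lower genes went the other way, with 0.311% of the non-crest reads against 5.11%, 4.85% and 5.64%.

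The split of calls depended on how the libraries were scaled. TMM, which scales to the typical gene, moved the median by 0.37 log2 units. It gave 1131 higher (7.66%) and 442 lower genes (2.99%), so that 71.9% of calls were higher in place of 60.7%; DESeq2 size factors gave 1136 (7.69%) and 437 (2.96%), or 72.2%. At any size, 32.2% of genes then lay above all 3 and 29.7% below under TMM, and 32.7% and 29.4% under size factors. TMM gave the non-crest library a smaller scaling factor (0.861) than the neurospheres (1.01, 1.24 and 1.10), which raises each of its ratios to them. All 866 higher genes were therefore bound to be kept, which is no check of them. Of the 561 lower genes, 442 were kept. The bar also leaned on single libraries. M1 was the highest neurosphere for 563 of the 866 higher genes, and the adipose neurospheres were the lowest for 298 of the 561 lower genes. Against M1 alone 1116 genes (7.67%) were higher and 2012 (13.8%) lower. The adipose neurospheres alone gave 2013 (14.5%) and 938 (6.78%), and M2 alone 1792 (12.7%) and 1483 (10.5%). Leaving M1 out of the bar gave 1376 higher genes, and leaving the adipose neurospheres out gave 1292 lower genes.

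**Figure D1:**
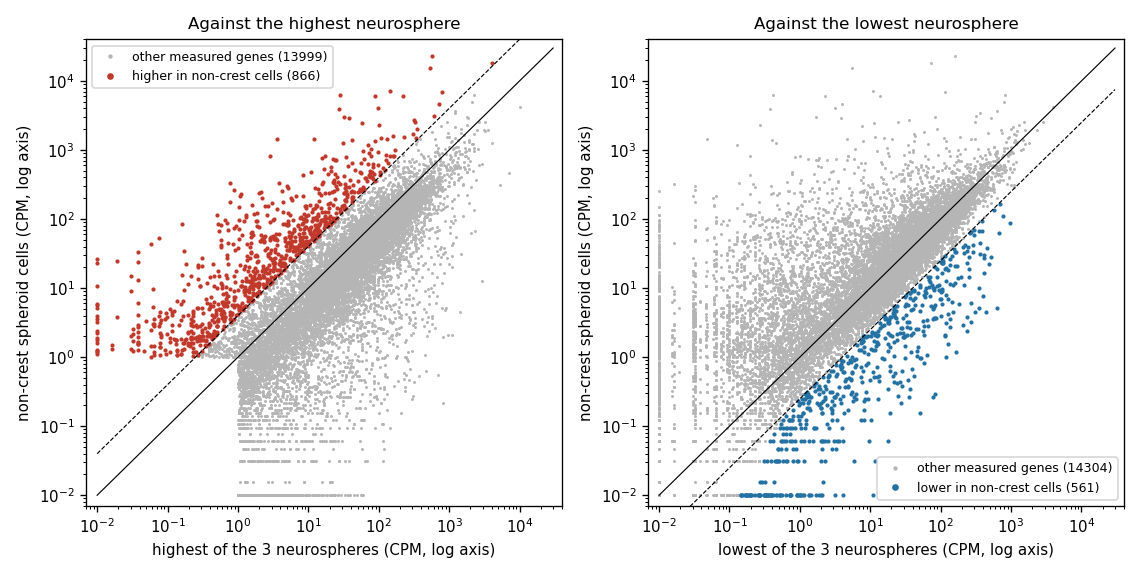
CPM of each measured gene in the non-crest spheroid cells against the highest (left) and the lowest (right) of the 3 neurospheres, both on log axes with 0 drawn at 0.01; the solid line marks equal values and the dashed line a 4-fold difference. The 866 higher genes lie above the dashed line on the left and reach 22972 CPM, and the 561 lower genes lie under it on the right.

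Crest markers are described first. The neurospheres were grown from cells sorted as crest, so lower values beside them do not check the label of the library. Sox10, the transcription factor that keeps crest progenitors and glia in their state (Entrez 20665; chromosome 15, 79154913 to 79164490, GRCm38.p6), was at 5.23 CPM in the non-crest cells and at 632, 786 and 661 CPM in the neurospheres, 121-fold below the lowest of them. On a list of 17 crest and enteric progenitor markers, all measured, 7 were lower than in all 3 neurospheres (11 without the adipose neurospheres in the bar) and 1 was higher. The lower ones were Sox10, Foxd3, Erbb3, Ngfr, Tfap2a, Sox2 and Ets1. The neuregulin receptor Erbb3 was at 3.76 CPM against 235, 502 and 457 CPM, and Ngfr, the low-affinity neurotrophin receptor, at 1.99 against 490.3, 114 and 365 CPM. Ets1 was only 5.3-fold below the lowest neurosphere and did not pass under TMM. The exception in the other direction was Phox2a, an autonomic neuron factor, at 5.98 CPM against 0.211, 0.405 and 0.0306 CPM. Phox2a reached 1 CPM in the non-crest cells alone, so the filter took part in that call.

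Glial genes were lower as a group. 10 of the 12 listed, all measured, were lower than in all 3 neurospheres, with a median log2 ratio to the lowest neurosphere of -4.51 against 0.09 over all measured genes. The cadherin Cdh19 of Schwann cell precursors was at 4.51 against 977, 444 and 1407 CPM. The 2 members that did not pass, Gfap (4.76 against 1.35, 236 and 874 CPM) and Gpr37l1 (1.07 against 1.12, 321 and 453 CPM), were low in the adipose neurospheres, which set their bar. Of 19 pan-neuronal genes, 16 were measured, and 7 of these were lower and none higher, or 13 lower without the adipose neurospheres in the bar. The neuronal tubulin Tubb3 was at 2.91 against 209, 208 and 303 CPM. The intermediate filament gene Prph and the RNA-binding protein gene Elavl3 had 0 reads in the non-crest cells, which makes them at least 31.5-fold and 5.95-fold lower than the lowest neurosphere. The synaptic gene Snap25 stood apart from these, with 47.3 CPM against 0, 53.1 and 6.34 CPM.

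Of 20 transmitter and neuropeptide genes, 15 were measured, and 3 were higher and none lower. Without the adipose neurospheres in the bar 6 were lower. Of the 3 higher genes, 2 reached 1 CPM in the non-crest cells alone. Slc5a7, the choline transporter of cholinergic neurons, was at 66 CPM against 1.7, 13.7 and 8.65 CPM. Slc17a6, a vesicular glutamate transporter, was at 9.54 against 0.0325, 0.173 and 0 CPM, and Gad1, which makes GABA, at 2.95 against 0, 0.116 and 0.0153 CPM. In the tdTomato-positive cells of the same spheroids these 3 genes were at 1.42, 0.0619 and 0.031 CPM, below the non-crest values. Summed over the 19 pan-neuronal genes, the non-crest cells held 82.8 CPM and the positive cells 3783 CPM.

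Fibroblast genes were higher as a group. Of 15 listed, 14 were measured, and 8 were higher and none lower, with a median log2 ratio of 2.72 to the highest neurosphere against -0.83 over all measured genes. Dcn, which encodes the collagen-binding proteoglycan decorin (Entrez 13179; chromosome 10, 97479500 to 97518163), was at 7124 CPM in the non-crest cells and at 11.3, 144 and 11 CPM in the neurospheres. That is 49.5-fold above M1, a log2 ratio of 5.63 (95% counting interval 5.6 to 5.66). The M1 value in turn lay well over the adipose and M2 values, a pattern that recurs in many of these genes. Lum, encoding the related proteoglycan lumican, was at 4110.0 against 3.17, 98.4 and 7.64 CPM. Pdgfra, the receptor for platelet-derived growth factors that marks mesenchymal cells (Entrez 18595; chromosome 5, 75151322 to 75198206), was at 576 against 1.98, 20.9 and 2.42 CPM, 27.5-fold above M1. Dpt (dermatopontin) and Pi16, both genes of adventitial fibroblasts, were at 241 against 1.31, 2.0 and 0.505 CPM and at 15.4 against 0.0812, 0.675 and 0.0306 CPM. Pi16 reached 1 CPM in the non-crest cells alone.

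Not all fibroblast genes followed. Pdgfrb, a receptor shared by fibroblasts and pericytes, was at 531 CPM against 263, 145 and 47.3 CPM, a 2.02-fold margin over the adipose neurospheres that did not pass. Fbln1 (fibulin 1) differed by little from M1, with 749 against 3.21, 733 and 300.4 CPM. Col14a1 lay below all 3, with 7.64 against 59.99, 13.6 and 25.4 CPM, without passing the rule.

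Most smooth muscle genes lay above all 3 neurospheres, few of them by enough to pass. Of 16 listed, 14 were measured, 10 lay above all 3 neurospheres, and 3 were higher by the rule and none lower. Those 3 were Des, Mylk and Tpm2. The median log2 ratio to the highest neurosphere was 0.69, against -0.83 over all measured genes. Without M1 in the bar 7 were higher. Des, which encodes the muscle filament desmin, was at 113 CPM against 1.06, 5.49 and 2.25 CPM, 20.6-fold above M1. The smooth muscle actin Acta2 was at 21.3 against 7.61, 44.8 and 6.49 CPM, between the neurospheres. The myosin Myh11 was at 12.9 against 0.536, 6.01 and 0.368 CPM, a margin of 2.14-fold that did not pass. Summed over the 16 genes, the non-crest cells held 1025 CPM, against 457, 635 and 348 CPM in the neurospheres. Freshly sorted tdTomato-positive bowel cells, which went into no comparison here, held 38534 CPM. The CArG box bound by serum response factor (CC, 6 bases of A or T, then GG, searched on both strands) was found in the 250 bases before the start of 2 of the 12 listed genes with a promoter in the RefSeq table. Neither was among the 3 higher genes. It was present in 1.44% of measured genes with a promoter, so 0 of 3 says nothing about these genes.

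Interstitial cell genes gave a mixed picture. Thbs4, encoding the matrix glycoprotein thrombospondin 4, was at 3939 CPM against 0.373, 27.6 and 0.674 CPM, a log2 ratio of 7.15 (95% counting interval 7.08 to 7.23) to M1. It was the only 1 of 6 interstitial cell of Cajal genes past the rule, and it made up most of their summed 4160 CPM in the non-crest cells. Kit, the receptor that defines those cells, was at 21.7 against 2.65, 6.01 and 1.1 CPM, 3.6-fold above M1. It did not pass with library totals and M1 in the bar. Kit passed when libraries were scaled by TMM or DESeq2 size factors, and also with library totals when M1 was left out of the bar. Ano1, their chloride channel, was at 56.6 against 69.3, 29.6 and 0.383 CPM, and Etv1, their transcription factor, at 83 against 12.4, 339 and 198 CPM. Both lay between the neurospheres. Of 4 genes of PDGFRA-positive interstitial cells, 3 were higher. Besides Pdgfra these were Kcnn3, the small-conductance potassium channel of these cells, at 29.1 against 0.162, 2.7 and 1.5 CPM, and Cygb (cytoglobin) at 53.2 against 11.5, 6.32 and 1.29 CPM. The purine receptor P2ry1 was between the neurospheres at 31.1 against 7.92, 120.5 and 112 CPM.

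Vessel and lining genes were present at lower values. Of 12 blood endothelial genes, all measured, 5 were higher and none lower. Of these 5, 4 reached 1 CPM in the non-crest cells alone, so that the filter largely set this count, and with a filter at 5 CPM 1 was higher (Flt1). Tie1, an endothelial receptor kinase, was at 3.43 CPM against 0.0812, 0.0771 and 0 CPM, and the endothelial cadherin Cdh5 at 1.3 against 0.0162, 0 and 0 CPM. These are small numbers of reads beside those of the fibroblast genes in the same libraries. Pdpn (podoplanin), on the lymphatic list and also known from fibroblasts, was at 158 against 0.471, 12.7 and 5.59 CPM, while Prox1, which specifies lymphatic endothelium, was at 1.62 against 2.71, 5.78 and 3.29 CPM, below all 3. Among 6 pericyte genes, 5 were measured and 2 were higher. They encode the subunits of a vascular potassium channel, Kcnj8 at 76.6 against 10.8, 4.93 and 0.398 CPM and Abcc9 at 60.3 against 10.8, 6.48 and 1.27 CPM. Of 11 mesothelial genes, 10 were measured, and only Wt1, at 20.04 against 0, 4.74 and 0.0919 CPM, passed. Without M1 in the bar 7 did. The mesothelial surface protein gene Msln was higher in M1, at 2.41 against 0.227, 10.9 and 0.0459 CPM.

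No macrophage gene passed in either direction among 10 measured of 13. Their summed CPM was 118 in the non-crest cells and 31.8, 1370 and 34.5 in the neurospheres, so the M1 library carried most of this signal. Lyz2, the lysozyme of myeloid cells, was at 95.5 against 12.8, 1213 and 17.1 CPM. The mesothelial list moved with it, with 83.9 CPM in the non-crest cells against 1.12, 135 and 3.17 CPM. M1 set the bar for most higher genes, and the part of these cells in that bar was not tested. Lymphocyte and plasma cell genes were at low values, with the 12 listed summing to 67.1 CPM in the non-crest cells against 1.57, 8.89 and 2.76 CPM. Past the rule were 8, but all 8 reached 1 CPM in the non-crest cells alone, so their count was set by the filter. With a filter at 5 CPM 3 passed. Ighm, the heavy chain of IgM, was at 27.1 against 0.454, 0.501 and 0.689 CPM. Cd3e, of T cells, was at 0.155 CPM. The pan-leukocyte gene Ptprc was at 3.0 against 0.601, 7.71 and 1.55 CPM, between the neurospheres. No epithelial and no skeletal muscle gene was measured, of 8 and 7 listed.

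**Figure D2:**
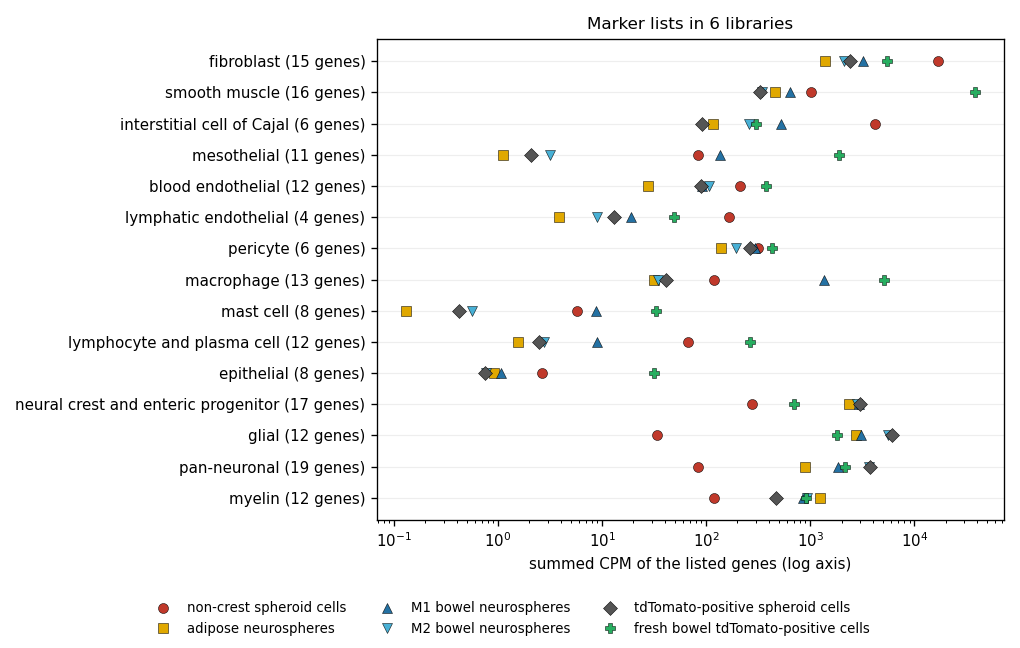
Summed CPM (log axis) of the listed genes of each cell type in the non-crest spheroid cells, the 3 neurospheres, the tdTomato-positive cells of the same spheroids and freshly sorted tdTomato-positive bowel cells, 1 point per library. The non-crest cells are highest for fibroblast genes (16758 CPM) and lowest for glial genes (33.6 CPM), and the M1 neurospheres stand above the other neurospheres for macrophage and mesothelial genes. Thbs4 alone makes up most of the non-crest sum for interstitial cells of Cajal.

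Matrix genes took a large share of the non-crest reads. Fn1, which encodes fibronectin (Entrez 14268; chromosome 1, 71585473 to 71653280), took more reads than any other gene of the library. It was at 22972 CPM in the non-crest cells, against 159, 427 and 581 CPM in the neurospheres, 39.6-fold above M2. In the tdTomato-positive cells grown in the same spheroids it was at 4266 CPM, which is 18.6% of the non-crest value. Of 19 matricellular protein and proteoglycan genes, all measured, 10 were higher and none lower, with a median log2 ratio of 2.09 to the highest neurosphere against -0.83 over all measured genes. Thbs1, encoding thrombospondin 1, was at 6151 against 24.7, 87.2 and 2.3 CPM. Spp1, encoding osteopontin, was at 18077 against 4073, 802 and 74.1 CPM, and here the adipose neurospheres came nearest. The large proteoglycan gene Vcan (versican) was at 411 against 7.97, 75.1 and 12 CPM. Ccn1, encoding a cell-binding matrix protein, was at 812 against 158, 76.2 and 59.6 CPM, but the tdTomato-positive spheroid cells exceeded this with 1098 CPM.

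Other matrix genes did not follow. Postn (periostin) was at 457 CPM against 7036, 563 and 1077 CPM, below all 3 neurospheres, and Sparc, encoding the collagen-binding protein osteonectin, was at 2555 against 3256, 2819 and 2968 CPM.

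Fibrillar collagen genes and their processing enzymes showed 6 of 20 members higher (30.0%) and none lower, all 20 measured. Col1a1, the main chain of type I collagen (Entrez 12842; chromosome 11, 94936224 to 94953042), was at 2535 CPM against 325, 203 and 24.7 CPM, and Col3a1, the chain of type III collagen, at 7002 against 284, 795 and 117 CPM. The partner chain Col1a2 was at 2244 against 770.2, 203 and 7.52 CPM and did not pass, as the adipose neurospheres lay within 2.91-fold. The cross-linking enzyme genes Lox and Loxl1 were at 336 against 7.84, 23.4 and 13 CPM and at 273 against 18, 54.2 and 20.7 CPM. Pcolce and Adamts2, which help trim procollagen, were 5.97-fold and 5.82-fold above the highest neurosphere. In contrast, Col11a1 was below all 3 at 4.45 against 11.5, 319 and 59.2 CPM.

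Elastic fibre genes gave 4 of 12 higher (33.3%) and none lower. Fbn1, encoding fibrillin 1, was at 975 against 12.4, 60.3 and 25.3 CPM. Ltbp2, a binding protein of these microfibrils, was at 434 against 2.03, 8.48 and 0.199 CPM, 51.1-fold above M1. Fbln5, needed for elastic fibre assembly, was high in the bowel neurospheres and not in the non-crest cells, with 5.75 against 2.27, 300.1 and 82.5 CPM. Among 13 basement membrane genes only Lama1 and Lamb1 passed (15.4%), both laminin chains. Lama1 was at 94.4 against 0.406, 1.83 and 1.21 CPM, and Lamb1 at 986 against 141, 169 and 41 CPM. The main collagen IV chain Col4a1 was at 1439 against 313, 622 and 374 CPM, a 2.31-fold margin.

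Of 17 matrix protease and inhibitor genes, 4 were higher (23.5%) and 2 lower (11.8%). Under TMM and under DESeq2 size factors 7 were higher and 1 lower, and without the adipose neurospheres in the bar 8 were higher. Mmp9, which encodes the gelatinase MMP9 (Entrez 17395; chromosome 2, 164940326 to 164955850), was at 15546 CPM against 19.1, 534 and 5.53 CPM, 29.1-fold above M1 and the third most-read gene of the rule. The stromelysins Mmp3 and Mmp10 were at 651 against 7.35, 41.5 and 8.02 CPM and at 271 against 13.9, 3.33 and 2.82 CPM. Their inhibitor Timp1 was at 1493 against 109, 15.6 and 24.2 CPM. Adamts5, which cuts proteoglycans, was lower at 3.79 against 273, 32.3 and 22.8 CPM. Adamts1 was also lower, at 134 against 2239.9, 599.9 and 573 CPM, but not under TMM.

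Genes of secreted growth factors were higher in part. Of 44 ligand genes, 40 were measured, and 13 were higher (32.5%, against 5.83% of all measured genes) and none lower. Their median log2 ratio to the highest neurosphere was 1.29, against -0.83 over all measured genes. Fgf10, a mesenchymal growth factor for epithelia (Entrez 14165; chromosome 13, 118714699 to 118792573), was at 203 CPM in the non-crest cells and at 0.0974, 0.0578 and 2.175 CPM in the neurospheres, 93.4-fold above M2. It was near 0 in freshly sorted tdTomato-positive bowel cells, at 0.104 CPM. Fgf7, which acts on the same receptor, was at 45.6 against 5.76, 0.52 and 1.58 CPM. Hgf, the ligand of the Met receptor, was at 213 against 1.07, 6.78 and 1.55 CPM. Bmp2, a bone morphogenetic protein, was at 279 against 5.18, 1.5 and 1.55 CPM, 53.9-fold above the adipose neurospheres, whereas its relative Bmp4 was at 2.03 against 1.3, 27 and 37.3 CPM, well under both bowel neurospheres.

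Ligands with known receptors on enteric crest cells did not move as one. Nrg1, the ligand of the Erbb3 receptor complex, was at 46.1 CPM against 1.04, 5.4 and 4.2 CPM, 8.54-fold above M1. Gdnf, the ligand of the Ret receptor complex, was at 16 against 67.4, 14.3 and 34.4 CPM, which places the non-crest cells next to M1 and below the others. Its relative Artn was below all 3, at 27.8 against 128, 66.6 and 247 CPM. Edn3, the ligand of Ednrb, stayed under 1 CPM in the 4 libraries.

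Wnt pathway ligands were also unequal. Wnt4 was at 5.52 against 0.633, 0.366 and 0.0306 CPM and Wnt11 at 30.9 against 1.41, 7.25 and 0.567 CPM, both past the rule. Wnt4 reached 1 CPM in the non-crest cells alone. Rspo3, an R-spondin that strengthens Wnt signals, was at 46 against 0.633, 2.37 and 0.429 CPM. Wnt5a was at 660.2 against 14.1, 189 and 62.3 CPM, 3.49-fold above M1, and passed under TMM and DESeq2 size factors but not with library totals.

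**Figure D3:**
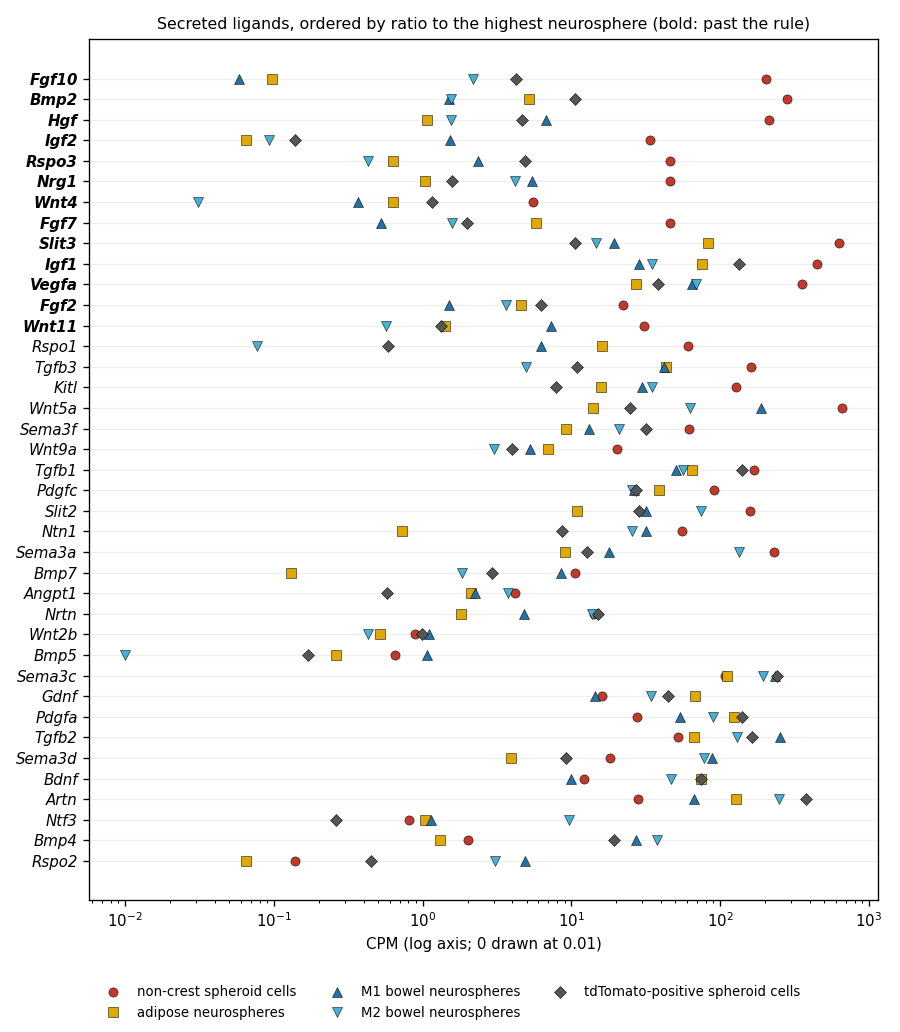
CPM (log axis, 0 drawn at 0.01) of measured secreted ligand genes in the non-crest spheroid cells, the 3 neurospheres and the tdTomato-positive spheroid cells, ordered by the ratio of the non-crest cells to the highest neurosphere, with the 13 genes past the rule in bold. The non-crest point lies to the right of the others for the upper genes such as Fgf10 (203 CPM), and among or to the left of them for the lower genes such as Bmp4 (2.03 CPM).

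Antagonists of these signals were among the higher genes as well. Of 16 BMP and Wnt antagonists, 13 were measured, and 5 were higher (38.5%) and 1 lower (7.69%). Of the 5 higher ones, 2 reached 1 CPM in the non-crest cells alone. Under TMM and under DESeq2 size factors 9 were higher, without the adipose neurospheres in the bar 8, and with a filter at 5 CPM 3. Grem1, a secreted BMP inhibitor of the gut wall (Entrez 23892; chromosome 2, 113748675 to 113758648), was at 802 CPM against 34.3, 23.7 and 0.858 CPM, 23.4-fold above the adipose neurospheres. Dkk3 was at 715 against 1.96, 24.6 and 1.82 CPM, and Sfrp1, a soluble Frizzled-like protein, at 384 against 82.5, 53.8 and 15.1 CPM. Frzb, of the same protein class as Sfrp1, was the lower one, at 2.24 against 115, 39.8 and 29.1 CPM.

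Insulin-like growth factor genes were 4 of 11 higher (36.4%) and none lower, and 7 were higher without the adipose neurospheres in the bar. Igf1 was at 447 CPM against 74.8, 28.3 and 34.9 CPM. Igf2 and H19, imprinted neighbours on chromosome 7, were at 33.7 against 0.0649, 1.52 and 0.0919 CPM and at 51.5 against 0.13, 3.47 and 0.291 CPM. In both genes the non-crest cells were highest and M1 next. Igfbp4, a binding protein of these factors, was at 6095 against 13.9, 223 and 39.8 CPM.

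Acute phase and immune ligand genes held several of the highest ratios. Saa3, a serum amyloid A protein made by many cells in inflammation (Entrez 20210; chromosome 7, 46711998 to 46719615), was at 6224 CPM against 0.422, 27.8 and 2.05 CPM, 224-fold above M1. Lcn2, an iron-carrier-binding lipocalin of the acute phase, was at 1463 against 0.0487, 3.6 and 1.99 CPM. Il6, the cytokine interleukin 6, was at 334 against 0.763, 0.27 and 0.138 CPM, a log2 ratio of 8.72 (95% counting interval 8.36 to 9.22) to the adipose neurospheres. Ptgs2, the inducible cyclooxygenase, was at 2880.1 against 18.6, 37.4 and 3.8 CPM. In the tdTomato-positive cells of the same spheroids, Saa3, Lcn2, Il6 and Ptgs2 were at 107, 58.8, 17 and 62.2 CPM, under the non-crest values and over all 3 neurospheres.

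Chemokines and cytokines numbered 10 higher of 14 (71.4%), all measured, and none lower. Their median log2 ratio to the highest neurosphere was 3.15. Of these 10, Il6 and Ccl11 reached 1 CPM in the non-crest cells alone, so the filter took part in their calls. Ccl2, which attracts monocytes, was at 1459 CPM against 20.5, 57.2 and 133 CPM, and its neighbour Ccl7 at 772 against 15.7, 8.06 and 1.88 CPM. Ccl11, the eosinophil attractant eotaxin, was at 261 against 0.0325, 0.887 and 0.597 CPM. Csf1, the growth factor of macrophages, was at 1338 against 7.79, 89.3 and 43.8 CPM, 15-fold above M1. The neutrophil attractant Cxcl1 and the T cell attractant Cxcl10 were at 125 against 0.682, 9.0 and 11.4 CPM and at 144 against 1.9, 18.4 and 19.9 CPM. For these 2 genes the tdTomato-positive spheroid cells came close, at 82.8 and 139 CPM. Lif was not among them, at 76.9 against 82.2, 0.328 and 2.66 CPM.

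Since 10 of these genes were higher together, the 250 bases before their start sites were read from RefSeq (GRCm38.p6) and searched on both strands for the NF-kappaB consensus site, a motif chosen after the values were seen. 5 of the 10 higher members had a promoter in the table, and 4 of these 5 held a match, against 58 of 617 higher genes (9.40%), 29 of 400 lower genes (7.25%) and 653 of 11383 measured genes (5.74%). A match is a description of the letters and not evidence of binding. The 4 promoters are shown 5′ to 3′ on the gene's strand, with the matches in capitals, since their genes run from cytokine to chemokine to growth factor. Overlapping matches in Cxcl1 form 1 stretch. They lie at chr5:30012864-30013113 (plus strand), chr5:90890995-90891244 (plus strand), chr5:92348890-92349139 (minus strand) and chr3:107760470-107760719 (minus strand).
Il6: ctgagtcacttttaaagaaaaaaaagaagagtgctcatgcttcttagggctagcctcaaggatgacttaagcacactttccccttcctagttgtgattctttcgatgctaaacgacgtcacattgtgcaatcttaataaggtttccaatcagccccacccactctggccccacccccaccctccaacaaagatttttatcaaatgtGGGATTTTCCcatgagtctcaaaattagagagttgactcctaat
Cxcl1: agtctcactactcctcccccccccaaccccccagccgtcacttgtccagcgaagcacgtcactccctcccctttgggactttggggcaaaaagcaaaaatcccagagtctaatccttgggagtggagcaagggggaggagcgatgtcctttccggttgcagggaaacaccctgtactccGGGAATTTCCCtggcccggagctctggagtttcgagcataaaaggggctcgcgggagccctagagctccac
Cxcl10: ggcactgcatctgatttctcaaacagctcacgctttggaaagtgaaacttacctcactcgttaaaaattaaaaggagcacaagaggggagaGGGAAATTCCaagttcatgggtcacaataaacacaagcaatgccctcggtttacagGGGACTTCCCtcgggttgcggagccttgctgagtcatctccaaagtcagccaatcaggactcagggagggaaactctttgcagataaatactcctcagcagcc
Csf1: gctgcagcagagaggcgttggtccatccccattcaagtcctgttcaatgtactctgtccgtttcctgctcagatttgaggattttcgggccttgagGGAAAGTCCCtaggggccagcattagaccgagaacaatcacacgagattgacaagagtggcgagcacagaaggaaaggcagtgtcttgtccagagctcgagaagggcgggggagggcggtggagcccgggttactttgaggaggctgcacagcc

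In Il6 the match began 44 bases before the start site and in Cxcl1 71 bases before it. Cxcl10 held a pair of matches, beginning 159 and 103 bases before the start, and Csf1 had 1, at 154 bases.

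Complement genes were 6 of 8 higher, all measured, and none lower, with a median log2 ratio of 3.57. C3, the central complement component, was at 1191 CPM against 0.13, 70.8 and 2.99 CPM. Serping1, the inhibitor of the first complement enzymes, was at 2489 against 24.2, 57.6 and 11.3 CPM, 43.2-fold above M1. C4b went with the bowel neurospheres in its place, at 117 against 0.195, 249.9 and 519.9 CPM and 1042 CPM in the tdTomato-positive spheroid cells.

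Transcription factors of gut mesenchyme were 11 of 23 measured (25 listed) higher and none lower, and 17 were higher without M1 in the bar. Of the 11, 1 reached 1 CPM in the non-crest cells alone. Foxf1, a hedgehog-responsive forkhead factor of gut mesoderm (Entrez 15227; chromosome 8, 121084386 to 121088154), was at 41.2 CPM against 0, 4.84 and 0.521 CPM, 8.52-fold above M1. Foxf2 was at 60.02 against 3.83, 3.7 and 0.168 CPM. Nkx2-3, a homeobox factor of intestinal mesenchyme, was at 35.3 against 0, 7.92 and 0.0919 CPM. For Foxf1 and Nkx2-3 the adipose neurospheres had 0 reads, and M1 was the highest neurosphere. The mesenchymal factors Prrx1 and Twist2 were at 156 against 3.36, 8.85 and 6.17 CPM and at 14.1 against 0.99, 1.29 and 0.123 CPM. Hand1 and Hand2 parted: Hand1 was at 15.6 against 0, 2.27 and 0.153 CPM and past the rule, while Hand2, which enteric neurons also use, was at 33.4 against 0.162, 60.7 and 73.2 CPM. Tbx3 lay below all 3, at 51 against 76, 302 and 163 CPM.

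Hox genes, which record position along the body, were mostly within the range of the neurospheres. Of 39 listed, 25 were measured and 2 were higher, Hoxc6 at 18.5 CPM against 1.59, 3.64 and 0.536 CPM and Hoxc8 at 12.4 against 0.341, 2.56 and 0.0306 CPM. The share of 2 in 25 is near the 5.83% of all measured genes. Without M1 in the bar 4 were higher, and without the adipose neurospheres 4 were lower. Hedgehog pathway genes gave 1 higher (2 under TMM, 3 without M1 in the bar) and 2 lower of 9 measured (13 listed). These were 11.1% and 22.2% of the 9, against 5.83% and 3.77% of all measured genes. Gli2, a transcription factor of the pathway, was at 34 against 0.195, 7.32 and 3.2 CPM. The ligand Dhh of Schwann cells was at 0.819 against 80.9, 62.6 and 57.2 CPM, 69.8-fold below the lowest neurosphere, and the inhibitor Hhip at 0.155 against 1.12, 18.5 and 12.7 CPM. The receptor and target Ptch1 was at 8.13 against 8.08, 19.3 and 16.5 CPM, which differs from the adipose neurospheres by less than counting error.

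Among 11 measured retinoid genes (12 listed), 3 were higher (27.3%) and none lower, with a median log2 ratio of 0.24 to the highest neurosphere. Without M1 in the bar 6 were higher. Those 3 held a pair of enzymes that make retinoic acid. Aldh1a2 (Entrez 19378; chromosome 9, 71215789 to 71296243) was at 597 CPM against 1.83, 37.1 and 21.1 CPM, 16.1-fold above M1, and Aldh1a3 at 932 against 35.1, 96.6 and 52.7 CPM. Rbp4, a retinol carrier, was at 3.79 against 0, 0.655 and 0 CPM, so it reached 1 CPM in the non-crest cells alone. The retinoic acid-binding protein gene Crabp2 was instead highest in the adipose neurospheres, at 6.34 against 106, 0 and 0.184 CPM.

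Proliferation genes were low in the non-crest cells, by less than the rule asks. None of 20, all measured, passed, but 19 lay below all 3 neurospheres, where 46.0% of all measured genes did, with a median log2 ratio to the lowest neurosphere of -1.11. Under TMM 18 did, against 29.7% of genes. Without the adipose neurospheres in the bar 5 passed as lower. Mki67, a protein of dividing cells, was at 28.8 CPM against 43.1, 206 and 115 CPM. The replication helicase gene Mcm7 was at 48 against 142, 222 and 162 CPM. Tyms, which makes thymidylate, was the exception at 55.1 against 35.2, 59.8 and 56.3 CPM. Egfr and Fgfr2, which encode receptors for epidermal and fibroblast growth factors, were higher. Egfr was at 238 against 7.45, 19.8 and 1.06 CPM and Fgfr2 at 103 against 0.438, 7.56 and 2.04 CPM. They were the only 2 of 13 fibroblast and epidermal growth factor response genes past the rule (15.4%). The median log2 ratio of those 13 to the highest neurosphere was -0.06.

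Genes of low oxygen and stress were higher in part. Of 19 hypoxia and glycolysis genes, 4 were higher (21.1%) and none lower. Egln3, an oxygen-sensing hydroxylase, was at 108 CPM against 0.292, 6.24 and 7.98 CPM, and Hk2, the first enzyme of glycolysis, at 60.7 against 6.53, 7.0 and 7.3 CPM. Vegfa, the vessel growth factor, was at 354 against 27.2, 64.1 and 69.1 CPM. The other glycolysis enzymes of the list did not pass, and the list's median log2 ratio to the highest neurosphere was -0.07. Immediate early and stress genes were 5 of 13 higher (38.5%), and 1 with the tdTomato-positive cells in the bar. Egr1 was at 1619.6 against 42.8, 115 and 158 CPM, but also at 1135 CPM in the tdTomato-positive cells and 1144 CPM in freshly sorted bowel cells. Fosb was higher still in the tdTomato-positive cells, at 119.9 CPM against 80.7 CPM in the non-crest cells. Interferon response genes were 4 of 13 measured higher (30.8%, 14 listed), and 2 with the tdTomato-positive cells in the bar. Summed over the 14 listed genes, the non-crest cells held 509 CPM and the tdTomato-positive cells more, 1537 CPM. Ifi44 was at 49.2 against 0.195, 2.89 and 0.199 CPM, while Oas1a was lower in the non-crest cells, at 19.4 CPM, than in the tdTomato-positive ones, at 28.3 CPM. None of 16 cholesterol and fatty acid synthesis genes passed in either direction. Below all 3 neurospheres lay 9 of them, where 46.0% of all measured genes did.

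**Figure D4:**
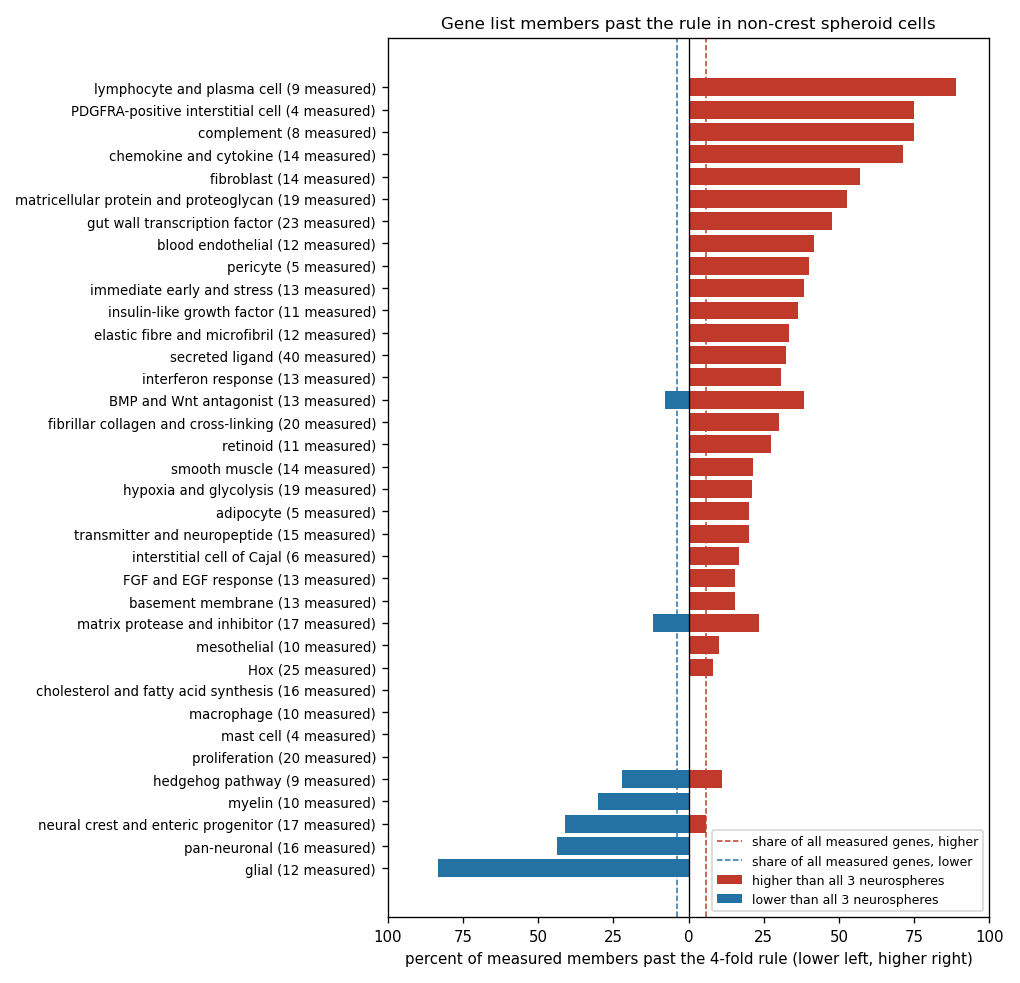
Percent of the measured members of each gene list with at least 4 measured members past the rule, higher to the right and lower to the left, with dashed lines at the shares over all measured genes (5.83% higher and 3.77% lower). Lists of fibroblast, immune ligand, complement and matricellular genes lie to the right and the glial, pan-neuronal and crest lists to the left; lists with few measured members have coarse shares, and the 8 lymphocyte and plasma cell genes past the rule reached 1 CPM in the non-crest cells alone.

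The 15 named genes with the highest ratios to the highest neurosphere were led by genes that the neurospheres barely expressed. Saa4, another serum amyloid A gene, was at 26.5 CPM with 0 reads in all 3 neurospheres, which makes it at least 459-fold higher than a library with 3 reads. Sprr2d, a cornified envelope protein of epidermis, and Fgb, a fibrinogen chain, were at 23.3 and 10.7 CPM, again with 0 reads in the neurospheres, and so at least 403-fold and 185-fold higher. Kng1 (kininogen) was at 52.8 CPM against 0, 0 and 0.0766 CPM. For Ccr7, a chemokine receptor, the highest neurosphere held 3 reads, and the log2 ratio had a counting interval of 8.0 to 11.82. Gzme, a granzyme, and Slc6a14, an amino acid transporter, had 2 reads there, with intervals of 7.90 to 12.80 and 7.40 to 12.31. Iglc1, an immunoglobulin light chain segment, also had 2 reads, with an interval of 7.10 to 12. Saa1 had 1 read, with an interval of 7.83 to 15.62. The serum amyloid, granzyme, small proline-rich and immunoglobulin genes have near-identical copies that can share reads. Mcpt8, a protease of basophils, was at 83.6 against 0.162, 0.0771 and 0 CPM. Ereg, encoding the EGF receptor ligand epiregulin, was at 832 against 0.99, 2.83 and 1.88 CPM, 294-fold above M1 with many reads behind each value.

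The tdTomato-positive cells of the same spheroids held 0.294 CPM of Saa4, 0.82 CPM of Kng1, 3.68 CPM of Mcpt8 and 21 CPM of Ereg. These values stand between the neurospheres and the non-crest cells, and a comparison with them would use the same non-crest library.

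The 12 named genes with the lowest ratios to the lowest neurosphere held crest regulators and genes with neural roles. Kcnk13, a potassium channel, had 0 reads in the non-crest cells and 39.3, 10.9 and 14.6 CPM in the neurospheres, so it was at least 234-fold lower. Foxd3, a forkhead factor of early crest cells, was at 0.263 CPM against 81.3, 77.9 and 90.1 CPM, a log2 ratio of -8.04 (95% counting interval -8.99 to -7.53). Sox2, a progenitor factor, was at 0.294 against 131, 101 and 82.2 CPM. Luzp2 was at 0.155 against 50.6, 53.1 and 102 CPM. Wnt16, a Wnt ligand, had 2 reads in the non-crest cells, with a counting interval of -11.61 to -6.70 for the log2 ratio to M1. The homeobox genes Dlx1 and Dlx2 were at 0.155 against 31.4, 35.1 and 19 CPM and at 0.216 against 109, 49.3 and 27.4 CPM. Gal3st1, which makes the myelin lipid sulfatide, was at 0.263 against 35.8, 85.7 and 67.9 CPM, and Gatm, an enzyme of creatine synthesis, at 1.02 against 248, 131 and 119.7 CPM. Lrtm1 and Zfp536 were 285-fold and 137-fold below the lowest neurosphere. Sox10 completed the 12.

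**Figure D5:**
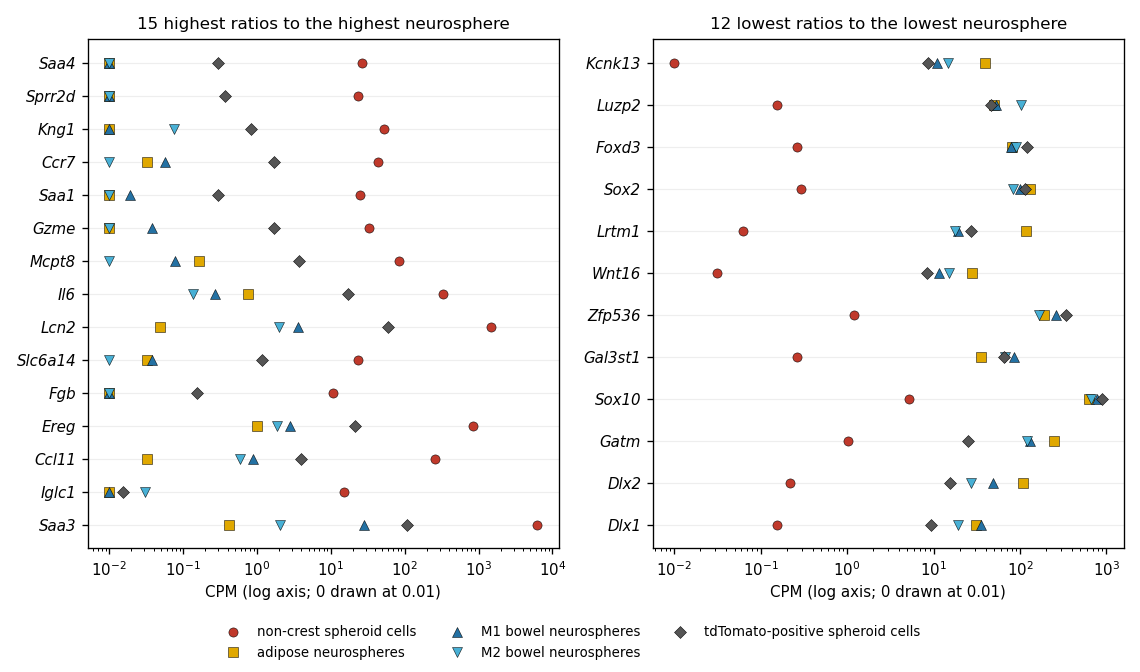
CPM (log axis, 0 drawn at 0.01) of the 15 named genes with the highest ratio to the highest neurosphere (left) and the 12 with the lowest ratio to the lowest neurosphere (right), in the non-crest spheroid cells, the 3 neurospheres and the tdTomato-positive spheroid cells. On the left the tdTomato-positive cells lie mostly between the neurospheres and the non-crest cells (Il6: 17.0 and 334 CPM), and on the right they lie with or near the neurospheres.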

How the data were processed

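The authors deposited CPM per Entrez gene for each library (read counts scaled to the same library total). The submitters' processing notes name HISAT, featureCounts, bcl2fastq 2.17 and the genome mm10. Not given in the sources used here were settings, annotation, use of strand and other versions. Overlapping genes and near-identical copies are therefore uncertain. Per the labels' protocols, cDNA was amplified with SMART-Seq v4 and made into libraries with Nextera XT. All values were whole multiples of 1 read, and 100% came out whole within 0.05 read, which gave the reads. Symbols and coordinates came from a RefSeq table of GRCm38.p6: 25275 of 27179 identifiers matched, and 1904 did not, which took from 0.222% (fresh bowel cells) to 0.351% (M1) of a library's reads.

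Log2 ratios were computed from reads scaled by the library total with a prior count of 2, which understates ratios of low genes; folds are plain ratios of CPM. Counting intervals are 95% exact conditional binomial. Ratios against 0 reads are bounds from 3 reads per library. With 1 library per group there are no residual degrees of freedom, so no count test was run on the recovered reads. Alternatives were TMM (edgeR 4.0.16, R 4.3.3) and DESeq2 1.42.0 size factors, no filter or 5 CPM, a prior of 0.5, 2-fold and 8-fold rules, and bars with other libraries.

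Named genes were the 15 highest and 15 most-read genes past the rule and the 12 lowest, without unnamed gene models (10 CPM or more in the non-crest cells for the highest, and in the lowest neurosphere for the lowest), and members of 39 gene lists (559 genes). The comparison, the lists and the rules were chosen with earlier results of these data known. The steps were tested on simulated reads. Tables were made in Python 3.11.15 with pandas 2.3.3, numpy 2.4.6 and scipy 1.17.1, and plots with matplotlib 3.10.9. TMM and size factors were computed over all 7 libraries, and 2 of the 3 libraries outside the comparison are quoted beside single results. A few listed genes are not reported here by name, but they remain in the counts and sums of their lists.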

Additional observations from a re-analysis of the deposited data

How the results depend on the processing

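The counts of 866 higher and 561 lower genes stayed within 1.5 times under both other scalings, without a filter (1074 and 602), with a filter at 5 CPM (658 and 450), without the M2 neurospheres (910 and 651) and with the tdTomato-positive spheroid cells added to the bar (760 and 511). A 2-fold rule gave 1481 and 1649, and an 8-fold rule 475 and 315, as these rules ask for less and more. Without the adipose neurospheres 1292 genes were lower and 1023 higher, and without M1 615 were lower and 1376 higher. The adipose neurospheres had set the bar for 298 of the lower genes, and M1 for 563 of the higher ones. A prior count of 0.5 changed no call. Of 183 named genes past the rule, 3 changed direction, all with the tdTomato-positive cells in the bar: Ccn1 (log2 ratio -0.43), Oas1a (-0.54) and Fosb (-0.57), which those cells expressed more highly. The sizes of the ratios held less well than their directions. Of the 183, 128 left their counting interval under TMM, 129 under DESeq2 size factors and 86 without M1 in the bar. No paired analysis was possible because each group has 1 library. With 1 library per group, how far a second culture would differ cannot be told; 3 reads correspond to 0.0459 to 0.0578 CPM in the 4 libraries, which is the level under which absence was not detectable.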

Other observations

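Several abundant genes outside the groups described were also past the rule. Smoc2, a secreted calcium-binding protein of the matrix, was at 4599 CPM in the non-crest cells and at 711, 69 and 3.98 CPM in the adipose, M1 and M2 neurospheres. The adipose value set the bar, and the M2 value was the lowest. Spon2, a secreted matrix protein with a role in innate immunity, was at 3031 against 1.67, 32.1 and 2.25 CPM. Lrp1, an endocytic receptor that clears proteases and their inhibitors, was at 2716 against 35.1, 317 and 138 CPM, and Ctsl, a lysosomal cysteine protease, at 3069 against 607, 315 and 314 CPM. Ctsl had the narrowest margin of these 4 genes, 5.06-fold over the adipose neurospheres.

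The remaining lists held few members past the rule. Of 8 adipocyte genes, 5 were measured and only Fabp4, a fatty acid-binding protein, was higher, at 18.1 CPM against 0.308, 3.1 and 0.919 CPM. Adipoq, which defines mature adipocytes, had 0 reads in the 4 libraries. None of 4 measured mast cell genes (8 listed) passed, and their summed CPM over the list was 5.71 against 0.130, 8.77 and 0.567. Of 4 lymphatic endothelial genes, 3 were measured and 2 passed, Pdpn and Flt4, a receptor of lymphatic vessels, at 6.35 against 0.617, 0.308 and 0.123 CPM. Flt4 reached 1 CPM in the non-crest cells alone. Without M1 in the bar 4 adipocyte and 3 mast cell genes were higher. Myelin genes were 3 of 10 measured (12 listed) lower and none higher, and 6 were lower without the adipose neurospheres in the bar. Gldn (gliomedin), a protein of Schwann cells at nodes, was at 2.1 against 1112, 13.1 and 133 CPM, and Mal, a myelin membrane protein, had 0 reads in the non-crest cells. Egr2, the factor that drives myelin genes in Schwann cells, did not follow them and was above all 3 neurospheres, at 73.4 against 19.7, 12.7 and 2.97 CPM, a margin of 3.73-fold that did not pass with library totals.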
